A study of Mus musculus with 4 samples.

Results

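The endoplasmic reticulum (ER) folding and stress genes are 34 genes for ER chaperones, disulfide and prolyl isomerases, stress sensors, degradation factors and translocation factors. They were taken by gene symbol from the probe annotation of the array, and all 34 had at least 1 probe set that names a single gene, 82 probe sets of 45101 in all and 34 genes of 18194. Their transcripts were compared in mouse embryonic fibroblasts (MEFs) with and without Pf1, the chromatin protein encoded by Phf12, in a study that asks about the role of Pf1 in nucleolar integrity. Pf1 -/- MEFs were lines 2 and 4 and Pf1 wild-type MEFs (Pf+/+ in the labels) were lines 5 and 6 of the 7706 series, each hybridised to 1 Affymetrix array. All lines were grown in 6% oxygen and used at passage 2 to 3. They came from embryo torsos of day 13.5 or 14.5, without head and red organs, and neither the day nor the passage of a given line is stated. How the Pf1 allele was made is not in the labels. They also do not state whether the lines stem from different embryos, and p-values therefore reflect only how much these 4 lines vary.

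The ER is where secreted and membrane proteins enter the secretory pathway, are glycosylated, fold and form disulfide bonds. When unfolded proteins build up, the sensors Ern1 (also called IRE1), Atf6 and Eif2ak3 (also called PERK) start the unfolded protein response. Ern1 splices the Xbp1 transcript, Atf6 is cut to release a transcription factor, and both routes raise the transcripts of chaperones and degradation factors, while Eif2ak3 slows translation. Fibroblasts carry a heavy load of this kind because they secrete collagen, whose folding depends on prolyl hydroxylation and on ER isomerases.

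Values are on the log2 scale of the deposited table, in which every probe set has a median of 0 over the 4 arrays. They show differences between lines but hold no level, so genes cannot be ranked by abundance and defining markers of fibroblasts cannot be checked for presence. A gene's value is the mean of its probe sets. Each difference is the knockout mean less the wild-type mean, given with its standard error (SE) from a limma fit over all 18194 genes (n = 2 lines per genotype). A gene was called at a Benjamini-Hochberg adjusted p under 0.05 over all genes.

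Most ER folding and stress genes differed by less than 1.5-fold between the genotypes, as did most genes in general. Of the 34 genes, limma called 4: Dnajb11, a cofactor of the main ER chaperone, was higher in the knockout, and Sil1, another cofactor of that chaperone, Xbp1, the transcription factor of the stress response, and Herpud1, a factor of ER degradation, were lower. This was 11.8% of the members, against 12.2% of all genes, so the members were called no more often than genes in general. In the single directions, 1 of 34 was called higher and 3 lower, against 5.21% and 6.95% of all genes. Without adjustment, 12 members had a p under 0.05, 4 with a positive and 8 with a negative difference, and 29.5% of all genes had such a p. The largest difference was 1.68-fold, and 1 member (2.94%) differed by at least 1.5-fold, compared with 9.92% of all genes. For 23 of 34 members the 95% interval of the difference lay within 1.5-fold in either direction, beside 12947 of all 18194 genes. The median difference of the members was 0.0035, beside -0.0027 for all genes, and the median of their absolute differences was 0.19, beside 0.15. In 24 of 34 members (70.6%) the genotypes did not overlap, against 58.2% of all genes. In 10 of these members the knockout lines were the higher ones (28.7% of all genes) and in 14 the lower ones (29.5% of all genes).

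**Figure D1:**
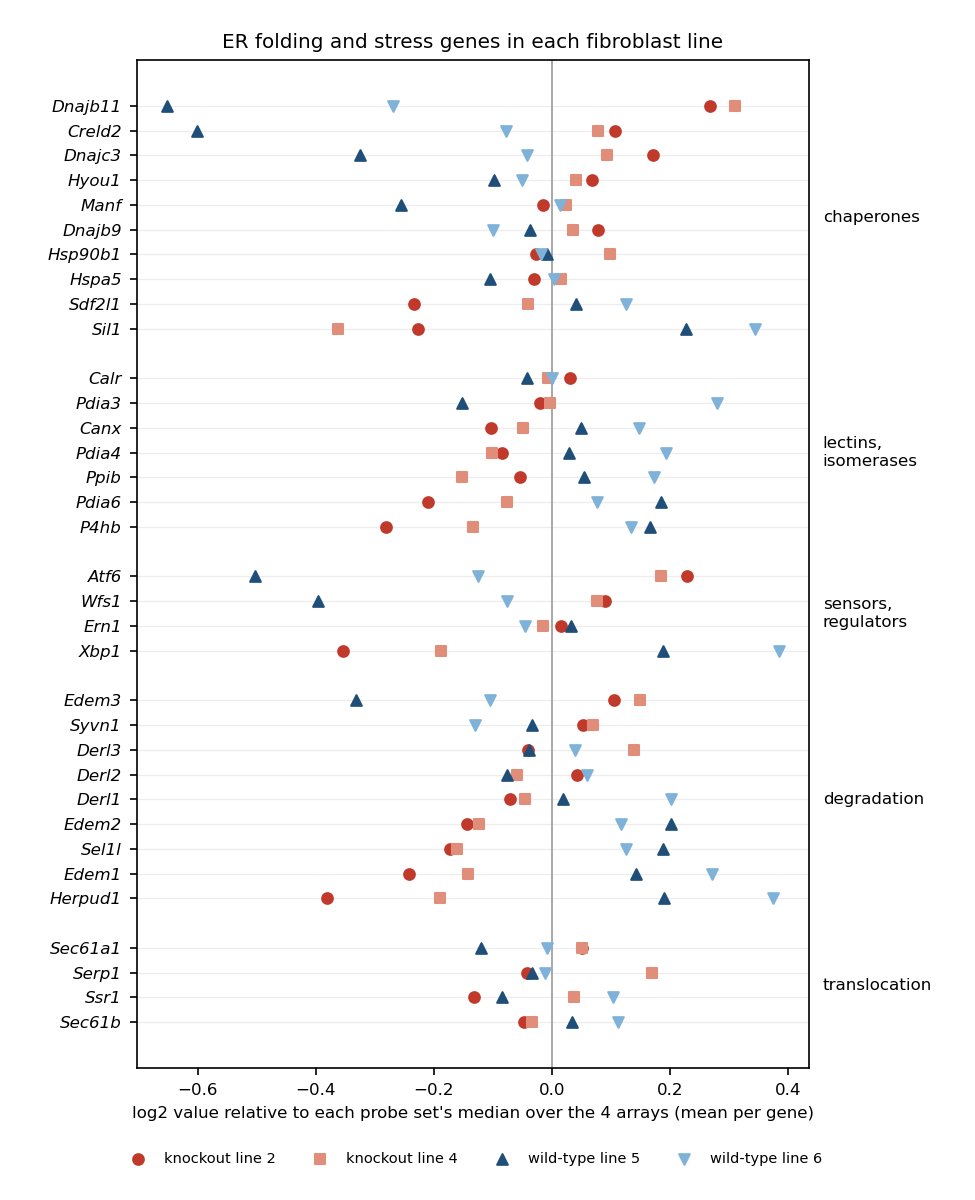
Log2 value of each of the 34 genes in each line (horizontal axis, relative to the median over the 4 arrays, mean over the probe sets of a gene), grouped by role and ordered by the difference between the genotypes. Circles and squares are knockout lines 2 and 4, triangles are wild-type lines 5 and 6. Dnajb11 shows the widest separation, with 0.27 and 0.31 in the knockout lines and -0.65 and -0.27 in the wild-type lines.

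**Figure D2:**
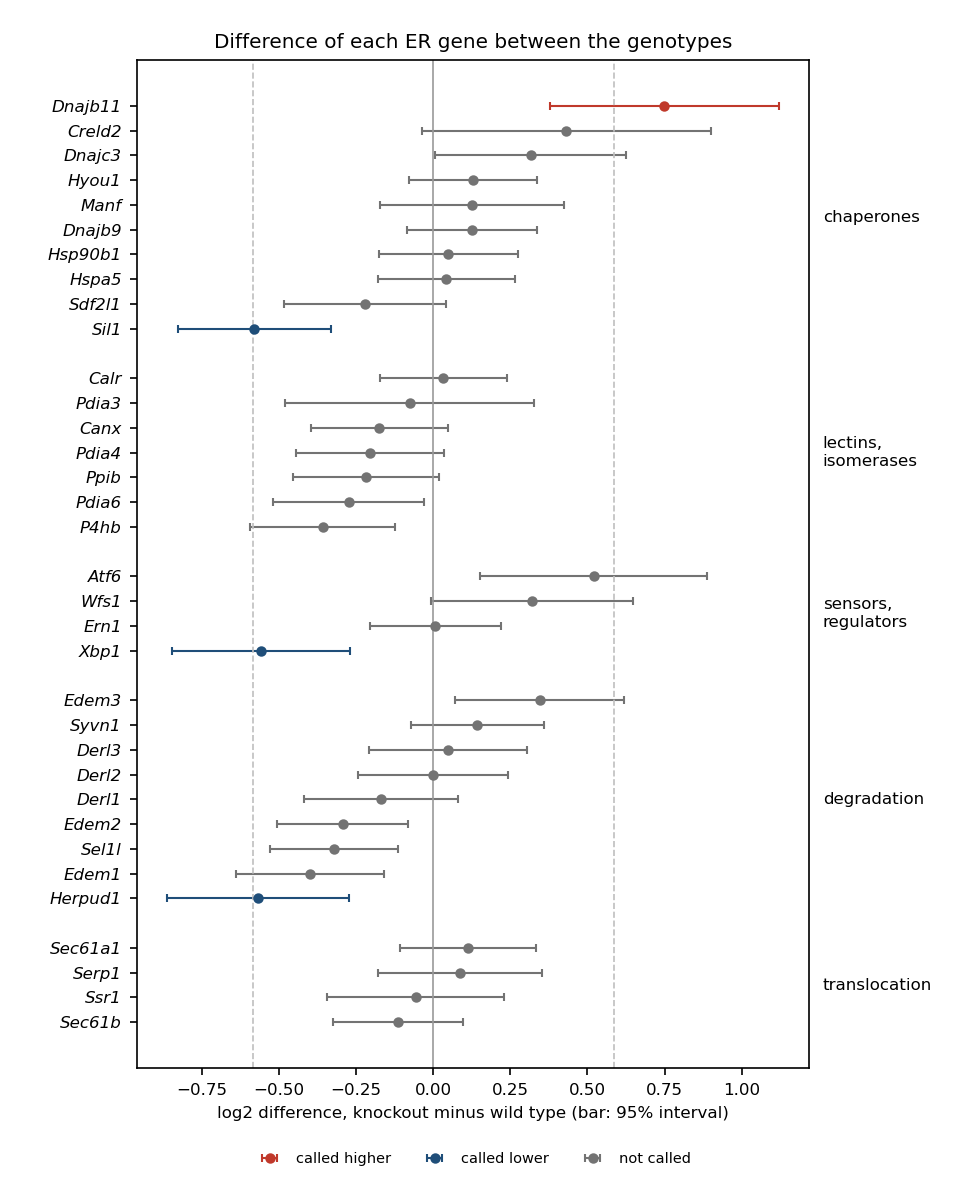
Log2 difference of each gene, knockout minus wild type, with its 95% interval from the limma fit (n = 2 lines per genotype). Dashed lines mark 1.5-fold. The called genes are Dnajb11 (0.75, higher) and Sil1, Xbp1 and Herpud1 (-0.58, -0.56 and -0.57, lower). Of the 34 intervals, 22 include 0, beside 12826 of 18194 for all genes.

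Promoter sequences are shown here because the stress response acts on many of these genes through short elements. The genes were listed by symbol as ER and stress response genes, so a higher share of matches than in all promoters was built into the list. RefSeq promoters (250 bases before to 50 bases after the annotated start, assembly GRCm38.p6) were matched for 28 of the 34 genes. Entries were missing for Sil1, Atf6, Manf, Derl1, Sec61a1 and Hyou1. The ER stress response element, searched on both strands as CCAAT, 9 bases and CCACG, was in the promoters of 9 of 28 members (32.1%), against 39 of all 32851 promoters (0.119%). The second form of the element, ATTGG, 1 base and CCACG, was in the promoters of 2 members (7.14%), Herpud1 and Dnajb11, against 12 of all promoters (0.0365%). The element TGACGTGG, also bound by Xbp1, was in none of the 28 and in 0.676% of all promoters. No member held both forms, and a match is a run of letters, not a measured binding site. The stretches with a match are given 5′ to 3′ on the strand of the gene, with the match in capitals. A match on the opposite strand reads CGTGG, 9 bases and ATTGG.
Hspa5, chr2:34772010-34772058, plus strand: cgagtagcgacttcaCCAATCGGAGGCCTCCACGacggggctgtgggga
Hsp90b1, chr10:86705518-86705671, minus strand, with 2 matches: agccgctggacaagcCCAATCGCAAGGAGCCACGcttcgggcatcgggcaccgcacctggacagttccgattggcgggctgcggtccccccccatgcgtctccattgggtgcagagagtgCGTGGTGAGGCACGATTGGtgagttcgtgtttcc
Calr, chr8:84847060-84847108, minus strand: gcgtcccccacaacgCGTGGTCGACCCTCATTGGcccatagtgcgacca
Canx, chr11:50325785-50325833, minus strand: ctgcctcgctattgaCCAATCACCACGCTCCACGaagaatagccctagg
Pdia6, chr12:17266476-17266524, plus strand: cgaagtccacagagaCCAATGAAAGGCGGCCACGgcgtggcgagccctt
Dnajc3, chr14:118937812-118937860, plus strand: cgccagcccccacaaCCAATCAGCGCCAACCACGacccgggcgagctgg
Creld2, chr15:88819505-88819553, plus strand: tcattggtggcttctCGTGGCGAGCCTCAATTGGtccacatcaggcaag
Syvn1, chr19:6046517-6046565, plus strand: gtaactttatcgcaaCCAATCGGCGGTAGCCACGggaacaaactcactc
Derl3, chr10:75893227-75893275, plus strand: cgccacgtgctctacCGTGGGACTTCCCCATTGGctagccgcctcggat
Herpud1, chr8:94386362-94386402, plus strand, second form: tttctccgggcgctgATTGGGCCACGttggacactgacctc
Dnajb11, chr16:22857843-22857871, plus strand, second form: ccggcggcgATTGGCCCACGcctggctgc
Xbp1, chr11:5520541-5520640, plus strand, the 100 bases before its start, with none of these letters in the promoter window: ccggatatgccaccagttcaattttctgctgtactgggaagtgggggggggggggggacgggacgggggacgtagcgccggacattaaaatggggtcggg

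The match of Herpud1 lay 52 to 42 bases before the annotated start and that of Dnajb11 at bases 8 to 18 after it. These genes, the members with the second form, moved in opposite directions: Dnajb11 rose and Herpud1 fell. None of the 9 genes with the first form was called by limma (0 of 9, against 12.2% of all genes). At an unadjusted p under 0.05 were 2, Dnajc3 and Pdia6, against 29.5% of all genes. So few genes cannot be set apart from these shares. The differences of the 9 genes ran from -0.27 (Pdia6) to 0.43 (Creld2) with a median of 0.049. Among the 17 members whose promoter held none of the letters searched, limma called Xbp1, and the median was -0.11. Outside the members, 28 other genes had the first form, 11 of them were measured, and limma called 3 of these lower: Spats2l (-0.89 ± 0.144 SE), Adcy3 (-0.51 ± 0.0875) and Acacb (-0.42 ± 0.0854), named because the count was small. The share of promoters with a match says nothing about how the members differed between the genotypes, and the differences of the matched genes are given as a description.

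The genotype labels were checked at Phf12. Its probe set 1434922_at was -0.37 in knockout line 2, -0.41 in knockout line 4, 0.56 in wild-type line 5 and 0.37 in wild-type line 6 (-0.86 ± 0.109 SE, limma adjusted p = 0.0213), while 1453579_at did not separate the genotypes (0.012, limma adjusted p = 0.965). The sources used here do not place either of them relative to the deleted part. Markers of cell state and of other cell types moved with genotype beside every value below: 7 of 9 smooth muscle markers rose, 4 of 8 fibroblast markers fell, and 3 of 8 epithelial markers rose while 1 fell. In the other lists, 1 endothelial marker rose and 1 fell of 6, as did 1 and 1 of 6 cartilage and bone markers. Of 6 skeletal muscle markers 1 rose, Des, which is also in the smooth muscle list and is counted in both. Over all genes, 5.21% were called higher and 6.95% lower. None of 7 macrophage, 3 erythroid, 4 plasma and B cell or 4 neural markers was called. The macrophage list had medians of 0.083, 0.99, 0.89 and -0.89 in lines 2, 4, 5 and 6, measured from the mean of the wild-type lines. The table holds no summed level of these lists, and their part in the ER results was not tested. In bulk RNA, fewer cells of a type and less RNA per cell cannot be told apart.

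The chaperones and their cofactors split into genes with small differences and a few that moved. The gene means of the core chaperones hardly differed. Hspa5 (BiP, the Hsp70 of the ER) was -0.030 in knockout line 2 and 0.015 in knockout line 4. In wild-type lines 5 and 6 it was -0.10 and 0.0033. The difference of Hspa5 was 0.043 ± 0.0866 SE (95% interval -0.18 to 0.27, limma adjusted p = 0.808), and its lines overlapped. This mean averages 3 probe sets of mixed sign (0.16, 0.13 and -0.17). Each separated the genotypes without overlap, and none was called. Hsp90b1 (Grp94, the Hsp90 of the ER) had a difference of 0.049 ± 0.0878 (95% interval -0.18 to 0.27), with overlapping lines. Hyou1, the large Hsp70-like exchange factor, stood at 0.13 ± 0.0803 (limma adjusted p = 0.367).

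Dnajb11 (ERdj3), the soluble J protein that hands unfolded chains to Hspa5, rose 1.68-fold. It was 0.27 in knockout line 2, 0.31 in knockout line 4, -0.65 in wild-type line 5 and -0.27 in wild-type line 6. Both knockout lines were high and close together, and the wild-type lines lay below them and apart from each other. The difference was 0.75 ± 0.144 SE (limma adjusted p = 0.0377). It rested in part on wild-type line 5: the difference was 0.56 without that line and 0.94 without wild-type line 6. Its single probe set leaves no second measurement.

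Sil1, the nucleotide exchange factor of Hspa5, fell 1.49-fold. It was -0.23 in knockout line 2, -0.36 in knockout line 4, 0.23 in wild-type line 5 and 0.34 in wild-type line 6. Both knockout lines were low and both wild-type lines high, with no overlap. The difference of Sil1 was -0.58 ± 0.0966 SE (limma adjusted p = 0.0289), the smallest adjusted p among the 34 genes. Thus of the cofactors of Hspa5, a J protein rose and an exchange factor fell, while Hspa5 itself was not called.

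The other J proteins were not called. Dnajc3 (p58IPK), a J protein that also restrains Eif2ak3, stood at 0.17 and 0.094 in the knockout lines and at -0.33 and -0.042 in the wild-type lines (0.32 ± 0.121 SE, limma adjusted p = 0.164). Wild-type line 5 was the low one, as it was for Dnajb11, and without it the difference of Dnajc3 was 0.17. Dnajb9 (ERdj4), a J protein that represses Ern1, had a difference of 0.13 ± 0.0819 (limma adjusted p = 0.392). Creld2, a secreted ER stress protein, stood at 0.11 and 0.077 in the knockout lines, -0.60 in wild-type line 5 and -0.077 in wild-type line 6. Its difference of 0.43 ± 0.183 (limma adjusted p = 0.199) was 0.17 with wild-type line 5 left out and 0.69 with line 6 left out. Manf, an ER-resident trophic factor, differed by 0.13 ± 0.116 and overlapped between the genotypes. Sdf2l1, a partner of Dnajb11 in the ER, stood at -0.22 ± 0.102 (limma adjusted p = 0.236), opposite in sign to Dnajb11, and at -0.12 without knockout line 2. In this role 8 of 10 differences were positive, with a median of 0.13.

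The lectins and isomerases leaned the other way, with 6 of 7 differences negative and a median of -0.20. Limma called none of them (0 of 7, against 12.2% of all genes). At an unadjusted p under 0.05 were 2, P4hb and Pdia6, against 29.5% of all genes. P4hb, which encodes protein disulfide isomerase and is also the beta subunit of collagen prolyl 4-hydroxylase, had the largest difference of the role. It was -0.28 in knockout line 2, -0.13 in knockout line 4, 0.17 in wild-type line 5 and 0.13 in wild-type line 6, without overlap (-0.36 ± 0.0917 SE, limma adjusted p = 0.0697). Pdia6, a disulfide isomerase that also acts on Ern1, stood at -0.21 and -0.076 in the knockout lines and at 0.18 and 0.076 in the wild-type lines (-0.27 ± 0.0953, limma adjusted p = 0.136). Pdia4 (ERp72) differed by -0.20 ± 0.0938 (limma adjusted p = 0.232) and Ppib, the prolyl isomerase cyclophilin B that assists collagen folding, by -0.22 ± 0.092 (limma adjusted p = 0.2). Neither gene overlapped between the genotypes (58.2% of all genes did not), and the difference of Pdia4 was -0.12 without wild-type line 6.

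The lectin chaperone Canx (calnexin), which holds glycoproteins while they fold, had a difference of -0.17 ± 0.0861 SE (limma adjusted p = 0.263) without overlap. Its soluble counterpart Calr (calreticulin) had 0.033 ± 0.0803 (95% interval -0.17 to 0.24), with overlapping lines. The isomerase that works with both lectins, Pdia3 (ERp57), stood at -0.019 and -0.0035 in the knockout lines, between -0.15 in wild-type line 5 and 0.28 in wild-type line 6. That gap between the wild-type lines exceeded the difference between the genotypes (-0.076 ± 0.157, 95% interval -0.48 to 0.33).

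Among the sensors and regulators, the transcript that fell was Xbp1, the transcription factor made active by Ern1. Xbp1 was -0.35 in knockout line 2, -0.19 in knockout line 4, 0.19 in wild-type line 5 and 0.38 in wild-type line 6. The genotypes did not overlap, and both pairs of lines were about equally far apart. The difference was -0.56 ± 0.112 SE, 1.47-fold lower (limma adjusted p = 0.0415). All 4 probe sets of Xbp1 were lower, from -0.69 to -0.46, and array values do not separate its spliced from its unspliced form here. The sensor that splices it, Ern1, had values between -0.046 and 0.032 in the 4 lines and a difference of 0.0067 ± 0.0827 (95% interval -0.21 to 0.22).

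Atf6, the sensor that becomes a transcription factor, was 0.23 in knockout line 2, 0.18 in knockout line 4, -0.50 in wild-type line 5 and -0.12 in wild-type line 6. Both knockout lines were higher than both wild-type lines, with line 5 lowest, and all 3 probe sets were higher in the knockout. The difference of Atf6, 0.52 ± 0.143 SE, missed the threshold (limma adjusted p = 0.0804), and it was 0.33 with wild-type line 5 left out and 0.71 with line 6 left out. Wfs1 (wolframin), an ER membrane protein that restrains Atf6, stood at 0.090 and 0.076 in the knockout lines, -0.40 in wild-type line 5 and -0.076 in wild-type line 6 (0.32 ± 0.128, limma adjusted p = 0.178). Wild-type line 5 was again apart from the other 3 lines: the difference of Wfs1 was 0.16 without it and 0.48 without wild-type line 6.

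The degradation factors pull misfolded proteins back to the cytosol for the proteasome. Of 9, limma called 1 (11.1%, against 12.2% of all genes). Herpud1 (Herp), an ER membrane protein of the degradation complex, fell 1.48-fold. It was -0.38 in knockout line 2, -0.19 in knockout line 4, 0.19 in wild-type line 5 and 0.37 in wild-type line 6. No line crossed to the other genotype. The difference of Herpud1 was -0.57 ± 0.115 SE (limma adjusted p = 0.0416), and both of its probe sets were lower.

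The mannose-trimming factors of the Edem family did not share a direction. Edem1 was -0.24 in knockout line 2, -0.14 in knockout line 4, 0.14 in wild-type line 5 and 0.27 in wild-type line 6 (-0.40 ± 0.0936 SE, limma adjusted p = 0.0573). Edem2 stood at -0.14 and -0.12 in the knockout and at 0.20 and 0.12 in the wild type (-0.29 ± 0.083, limma adjusted p = 0.0858). Edem3 had the opposite sign, at 0.11 and 0.15 in the knockout lines and -0.33 and -0.11 in the wild-type lines (0.35 ± 0.107, limma adjusted p = 0.104). None of the 3 overlapped between the genotypes (58.2% of all genes did not), and none passed the test as a gene.

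Of the ubiquitin ligase complex, the adaptor Sel1l stood at -0.17 and -0.16 in the knockout lines and at 0.19 and 0.12 in the wild-type lines (-0.32 ± 0.0809 SE, limma adjusted p = 0.0661). Its partner Syvn1 (Hrd1), the ligase itself, had a difference of 0.14 ± 0.0842 (limma adjusted p = 0.34). The derlins, membrane proteins of the same channel, had differences of -0.17 ± 0.0976 (Derl1), 0.00036 ± 0.095 (Derl2) and 0.049 ± 0.0998 (Derl3). The 95% interval of Derl2 ran from -0.24 to 0.24, and Derl2 and Derl3 overlapped between the genotypes. Within this role 5 of 9 differences were negative, with a median of -0.17.

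The translocation genes had a median absolute difference of 0.10, the smallest of the 5 roles. Limma called 0 of 4, with 0 at an unadjusted p under 0.05, against 12.2% and 29.5% of all genes. Sec61a1, the pore of the translocon, stood at 0.050 and 0.052 in the knockout lines and at -0.12 and -0.0077 in the wild-type lines (0.11 ± 0.0859 SE). The small subunit Sec61b differed by -0.11 ± 0.0822, the translocon-associated Ssr1 by -0.056 ± 0.112 and the translocon-stabilising protein Serp1 by 0.087 ± 0.103. Serp1 and Ssr1 overlapped between the genotypes. Of the 4 intervals, that of Serp1 reached highest, at 0.35, and that of Ssr1 lowest, at -0.34.

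The wild-type lines differed from each other at these genes more than the knockout lines did. The median gap between wild-type lines 5 and 6 was 0.11, beside 0.12 over all genes. That between knockout lines 2 and 4 was 0.044, beside 0.095 over all genes. The members thus stood apart by a small knockout gap, not by a large wild-type gap. The wild-type gap was the larger one for 26 of 34 genes (76.5%, against 58.5% of all genes). Wild-type line 5 had the lowest value for 13 members (38.2%, against 30.4% of all genes), among them Dnajb11, Creld2, Dnajc3, Atf6, Wfs1, Edem3 and Hspa5. Knockout line 2 had the lowest value for 15 (44.1%, against 25.2% of all genes), among them Xbp1, Herpud1, Edem1, Edem2, Sel1l, P4hb and Pdia6. With a single line left out, the 4 called genes kept their sign each time. That was fixed in advance, because their lines did not overlap between the genotypes.

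The probe sets of a gene were compared because they are separate measurements of 1 transcript on the same arrays, not replicates. Of 24 genes with more than 1 probe set, 17 had all differences on 1 side of 0 and 7 had both signs. The fit over all 45037 non-control probe sets called 7 of the 82 (8.32% of all probe sets were called). These were probe sets of the 4 called genes and, in addition, 1424065_at of Edem1 (-0.59 ± 0.114 SE, limma adjusted p = 0.0432), 1423695_at of Edem2 (-0.52, limma adjusted p = 0.0357) and 1430692_a_at of Sel1l (-0.58 ± 0.116, limma adjusted p = 0.047). Their companion probe sets differed less: 1451218_at of Edem1 stood at -0.20 and 1444335_at of Edem2 at -0.069. The 5 probe sets of Sel1l were all lower, from -0.58 to -0.12.

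The 7 genes with mixed signs included core chaperones. Hspa5 had 0.16 and 0.13 in 1416064_a_at and 1427464_s_at and -0.17 in 1447824_x_at. Ssr1 had 0.34 in 1441327_a_at and between -0.21 and -0.16 in the other probe sets. For Sec61a1 the differences ran from -0.051 to 0.41 over 6 probe sets, and for Ern1 from -0.25 to 0.19 over 5. A mean near 0 in these genes averages probe sets that did not move together, and none of their probe sets was called.

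**Figure D3:**
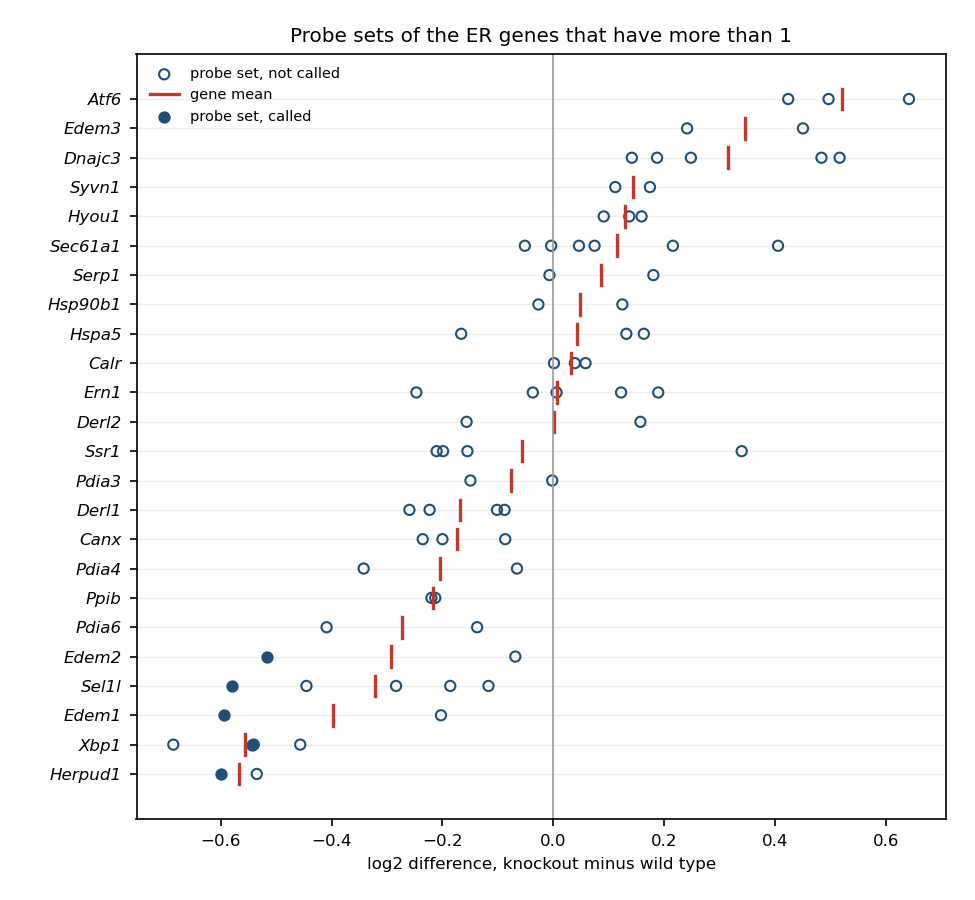
Log2 difference, knockout minus wild type, of each probe set of the 24 genes with more than 1. Filled circles were called in the limma fit over all probe sets, open circles were not, and the vertical bar is the mean per gene. The probe sets of Xbp1, Herpud1, Edem1 and Sel1l all lie below 0, those of Atf6 and Dnajc3 all above 0, and those of Hspa5 and Ssr1 on both sides.

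Other genes of the secretory pathway and transcripts reported as cut by Ern1 were counted over 9 lists. Limma called 22 of 124 measured genes (17.7%, against 12.2% of all genes), 7 higher and 15 lower. These counts include the transcripts reported as cut by Ern1, listed as its targets, where 3 of 5 were called, all lower. With the cytosolic heat shock list, 25 genes were called in all. Among 18 other regulators of the unfolded protein response, Creb3, an Atf6-like ER membrane factor, rose (0.47 ± 0.0942 SE, limma adjusted p = 0.0416). Trib3, the pseudokinase induced downstream of Eif2ak3 (-1.51 ± 0.19), Casp12, a caspase at the ER (-2.07 ± 0.332), and Bbc3, a cell death gene (-0.56 ± 0.0921), fell. The third sensor, Eif2ak3, had a difference of 0.075 ± 0.0881 (limma adjusted p = 0.649), and its effectors Atf4 and Ddit3 had -0.28 ± 0.119 and -0.27 ± 0.124 (limma adjusted p = 0.206 and 0.226). All 3 sensors were thus not called, with the difference of Atf6 the largest of them.

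In the oxidation list 11 of 15 differences were negative, and in the list of prolyl isomerases and the collagen chaperone 6 of 7. Of 15 genes for ER oxidation and thioredoxin-fold proteins 3 fell: Ero1a, which reoxidises protein disulfide isomerase (-1.65 ± 0.22 SE, limma adjusted p = 0.0197), Gpx7, an ER peroxidase (-0.51 ± 0.0824), and Txndc12 (-0.48 ± 0.0838). The median of the list was -0.16. Ero1b, the paralogue of Ero1a, was not called (-0.16 ± 0.0968). Of 7 prolyl isomerases and the collagen chaperone, Fkbp9 (-0.54 ± 0.082) and Fkbp7 (-0.39 ± 0.0824) fell, with a list median of -0.22.

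Of 21 other degradation genes, 3 were called higher and 1 lower, against 5.21% and 6.95% of all genes, and 8 of the 21 differences were negative. The 3 that rose were Ufd1 (0.62 ± 0.132 SE, limma adjusted p = 0.0457) and Nploc4 (0.70 ± 0.112, limma adjusted p = 0.0273), the cofactors of the Vcp segregase, and Erlin2 (0.71 ± 0.0865, limma adjusted p = 0.018), which marks the Ip3 receptor for degradation. Ngly1, the cytosolic glycanase, fell (-0.45 ± 0.0967). In the translocon list of 20 genes, the signal peptidase subunit Sec11c rose (0.45 ± 0.0818), and Sec61a2, a second form of the pore (-0.52 ± 0.105), and Srp68 of the signal recognition particle (-0.39 ± 0.0835) fell. In glycosylation and glycoprotein export, Dad1 of the oligosaccharyltransferase (0.51 ± 0.101, 1 of 11) and the cargo lectin Lman2 (0.55 ± 0.106, 1 of 10) rose. Of 17 genes for the COPII coat and retrieval, Sec24d, a cargo-binding coat subunit, fell (-0.42 ± 0.0814).

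Transcripts reported as cut by Ern1 in stressed cells had a median difference of -0.56 over 5 measured genes. Scara3 (-1.60 ± 0.117 SE, limma adjusted p = 0.0104), the collagen VI chain Col6a1 (-1.30 ± 0.14, limma adjusted p = 0.016) and the receptor Pdgfrb (-0.52 ± 0.09) fell. Col6a1 and Pdgfrb are also mesenchymal genes, and fibroblast markers fell in the same lines, with Col1a1 at -0.96 ± 0.129 and Pdgfra at -2.17 ± 0.418. Whether cutting by Ern1 or fibroblast genes as a group had a part in these values was not tested. In the cytosol, 3 of 12 heat shock genes rose: the small heat shock protein Hspb1 (0.85 ± 0.083), the J protein Dnaja1 (0.65 ± 0.0786) and Hsph1 (0.73 ± 0.16, limma adjusted p = 0.0499).

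**Figure D4:**
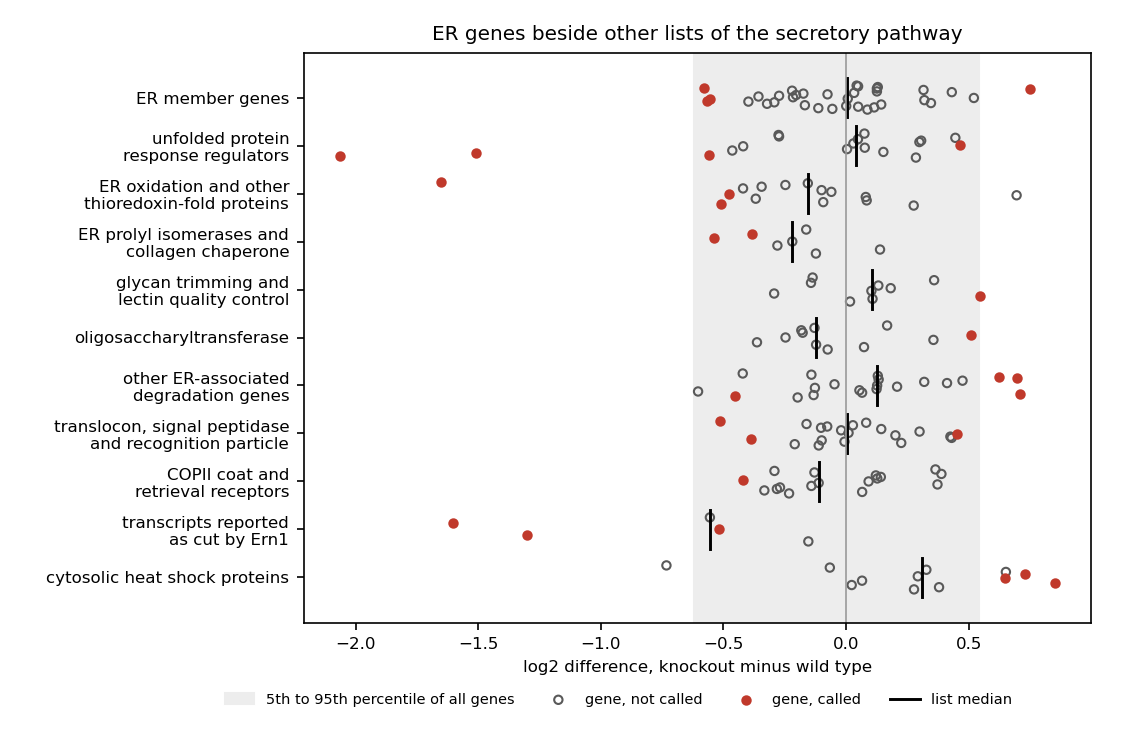
Log2 difference, knockout minus wild type, of the 34 ER genes (top row) and of the genes of 10 other lists. Filled points were called by limma, black bars are list medians, and the grey band spans the 5th to 95th percentile of all genes (-0.62 to 0.54). Of the 34 ER genes, Dnajb11 (0.75) lies outside the band. In the other lists, genes below it include Casp12 (-2.07), Trib3 (-1.51), Ero1a (-1.65) and Scara3 (-1.60). Genes above it include Hspb1 (0.85), Erlin2 (0.71) and Lman2 (0.55).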

How the data were processed

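The authors' deposited log2 values came from Affymetrix Expression Console and RMA, per the submitters' processing notes. The sources used here give no version, no log base (log2 is what RMA yields) and no account of how each probe set was centred on its median over the arrays. The series text names the 430A 2.0 array, but the 45101 probe sets matched GEO's annotation of the larger form of this array. From these values, the mean of the probe sets naming 1 gene (34958 probe sets, 18194 genes) was fitted with limma 3.58.1 in R 4.3.3 without covariates (2 residual and 3.04 prior degrees of freedom). Entrez identifiers of 34754 probe sets matched RefSeq (GRCm38.p6), changing 0 symbols. The number of arrays limits the precision, and no batch is given in the labels. The fit was tested on simulated data. The 34 genes, the lists and the motifs were chosen with earlier results of these data known. Named were Phf12, every member, and of each other ER list every called gene where 5 or fewer were called, otherwise the 4 with the smallest p. Outside this rule, and after their values were seen, Eif2ak3, Atf4, Ddit3, Ero1b, Col1a1, Pdgfra, Des, Spats2l, Adcy3 and Acacb were named. Planned protein motifs were not analysed here.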

Additional observations from a re-analysis of the deposited data

How the results depend on the processing

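Sil1, Dnajb11 and Herpud1 stayed called under all 7 alternatives that kept the 4 lines: median of probe sets, only probe sets without _s_at, _x_at or _a_at, added probe sets of several genes, quantile normalisation, array medians set to 0, array weights and robust eBayes. Xbp1 lost its call where only 1 unsuffixed probe set was used (-0.69 ± 0.195 SE, limma adjusted p = 0.0906), and was called under the other 6. The count of other ER list genes was 15 with unsuffixed probe sets, where fewer genes were measured, against 25. With 1 line left out (1 residual degree of freedom), limma called 0 to 321 genes in all, 0 members in each case and 0 to 4 genes of the other ER lists. At an unadjusted p under 0.05, members numbered 1 higher and 3 lower without knockout line 2, 2 and 5 without knockout line 4, 2 and 9 without wild-type line 5, and 7 and 8 without wild-type line 6. Over these the difference of Dnajb11 ran from 0.56 to 0.94, that of Sil1 from -0.65 to -0.51, that of Xbp1 from -0.65 to -0.46 and that of Herpud1 from -0.66 to -0.47. No called member changed sign, which was fixed in advance because their lines did not overlap between the genotypes. The Phf12 probe set 1434922_at ran from -0.95 to -0.76 and lost its call without any 1 line. No paired analysis was possible because the genotypes share no line number. A filter on dim probe sets was not run, since centred values hold no signal level.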
